A study of Mus musculus with 4 samples.

Results

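Collagens are the structural proteins of the extracellular matrix, and their genes were taken here by symbol from the count table of mouse lung singlets. The pattern asks for Col, a number, the letter a and a number, and it found 39 of the 19647 genes of that table. They comprised 10 fibrillar collagens, 6 basement membrane collagens and 23 others, of which 5 are beaded filament collagens, 7 are fibril-associated collagens with interrupted helices, 2 are multiplexins, 3 form networks or anchoring fibrils, 4 are transmembrane proteins and 2, Col26a1 and Col28a1, stand alone. The table of lung multiplets holds 38 of them. RNA had been captured in droplets and sequenced near the 3′ end of transcripts (10x Chromium, 3′ v3 chemistry), and each captured molecule is counted by its unique molecular identifier (UMI). The samples used were 1 library of multiplets, which are clusters of attached cells that share a droplet and a barcode, and 1 library of singlets, which are single cells. Both came from whole lung of C57BL/6J mice, an inbred laboratory strain, after mechanical and enzymatic dissociation. The labels name no genotype, treatment, age or separate animals, and they do not say how multiplets and singlets were separated. Since each group is 1 library, no replicate spread was available, every interval given here is a 95% interval for counting error alone and no test was run.

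Every collagen chain is made with long runs of repeated units that begin with glycine, and a set of 3 chains winds into a rope-like triple helix inside the cell. Fibrillar collagens are exported, trimmed and packed side by side into the cross-linked fibres that give lung its tensile strength, while basement membrane (type IV) collagens keep interruptions in the helix and join at their ends into the sheets that lie under epithelium and endothelium. Fibroblasts are known as the main source of fibrillar collagen in lung, and the thin sheet between alveolar epithelium and capillary endothelium is rich in type IV collagen.

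The difference in repeat structure can be read from the coding sequence, and a stretch of a chain of each kind is shown because most of what follows sets these families apart. In the longest reading frame of GENCODE transcripts on GRCm38.p6, the assembly also called mm10, the longest unbroken run of units that begin with the glycine codon GGN was 338 units in Col1a1, 339 in Col1a2 and 344 in Col3a1. Among the basement membrane genes the longest runs held 39 units in Col4a3 to 66 units in Col4a2, and each of these genes had 16 to 24 separate runs of at least 4 units. The fibrillar genes Col24a1 and Col27a1 stood between, with longest runs of 216 and 217 units. The stretches below are codons 168 to 185 of Col1a1 (chromosome 11, plus strand) and codons 215 to 234 of Col4a1 (chromosome 8, minus strand), written 5′ to 3′ in the sense of the coding strand. Capitals mark GGN codons, and the Col4a1 stretch holds an interruption of 2 codons between the runs on either side.
Col1a1: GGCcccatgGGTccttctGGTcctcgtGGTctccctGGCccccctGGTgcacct
Col4a1: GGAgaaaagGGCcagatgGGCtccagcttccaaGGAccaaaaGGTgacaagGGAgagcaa

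The basement membrane genes lie in head-to-head pairs. In the GENCODE annotation of GRCm38.p6 the start sites of Col4a1 (minus strand, 11312826) and Col4a2 (plus strand, 11312805) are 21 bases apart on chromosome 8, those of Col4a3 (plus strand, 82586921) and Col4a4 (minus strand, 82586849) are 72 bases apart on chromosome 1, and those of Col4a5 and Col4a6 are 1309 bases apart on chromosome X. The promoter of Col4a2, from 250 bases before to 50 bases after its RefSeq start, is shown because 78 of its bases also belong to the window of Col4a1, a gene whose levels went with those of Col4a2 in the classes below. The window of Col1a2 is shown as the counterpart from a fibrillar gene. Both are on the plus strand, and capitals mark the motif CCAAT or, in Col1a2 at the start site, its reverse complement. The motif stood 32 bases before the start site of Col4a2 and 109 bases before that of Col1a2.
Col4a2, chr8:11312555-11312854: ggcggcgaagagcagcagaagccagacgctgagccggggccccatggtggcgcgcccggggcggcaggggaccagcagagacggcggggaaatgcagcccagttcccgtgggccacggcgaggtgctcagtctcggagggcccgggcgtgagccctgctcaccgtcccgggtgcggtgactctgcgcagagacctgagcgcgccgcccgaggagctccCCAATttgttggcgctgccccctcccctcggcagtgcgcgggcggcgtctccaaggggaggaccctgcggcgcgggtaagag
Col1a2, chr6:4505368-4505667: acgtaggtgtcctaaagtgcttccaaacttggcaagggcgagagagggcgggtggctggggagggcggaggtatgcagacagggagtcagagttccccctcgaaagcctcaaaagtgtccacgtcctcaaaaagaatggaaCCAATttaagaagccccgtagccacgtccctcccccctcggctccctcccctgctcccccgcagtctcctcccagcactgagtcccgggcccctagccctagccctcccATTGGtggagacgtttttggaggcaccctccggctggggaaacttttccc

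The RefSeq table held windows for 31 of the 39 genes. CCAAT, searched on both strands, was present in 3 of 8 fibrillar, 3 of 5 basement membrane and 5 of 20 other collagen windows, and in 37.4% of all 32851 promoter windows. TATAAA, also searched on both strands, was present in 2 of 8 fibrillar, 0 of 5 basement membrane and 2 of 20 other collagen windows, and in 13.6% of all windows. These matches describe letters and not binding sites.

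The multiplet library held 4729 barcodes with a median of 11934 UMIs (5006 to 145206), and the singlet library held 6084 barcodes with a median of 7896 UMIs (2175 to 57498). Only 2 barcode sequences occurred in both. The authors assigned each singlet to a class. Connective tissue gave 2964 fibroblast-1 and 528 fibroblast-2 barcodes. Epithelium gave 1009 type II pneumocytes, which make surfactant, 181 ciliated cells, 61 airway secretory cells (the class Clara cell) and 6 type I pneumocytes, which line the alveolus thinly. Blood and immune classes were 334 T cells, 190 B cells, 172 natural killer (NK) cells, 283 macrophages and 227 alveolar macrophages, and there were also 119 endothelial cells and 10 mesothelial cells of the lung's outer lining. The mesothelial and type I classes are too small for any order to be read from them. The class names were checked on markers: 6 of 6 endothelial markers summed to 5596 CPM in the endothelial class, and 6 of 6 type I markers summed to 31100 CPM in the 6 type I barcodes. The endothelial class also held 5 of 5 lymphatic markers at a summed 5901 CPM and 6 of 6 type II pneumocyte markers at a summed 15134 CPM. Type II markers were found in other classes too, with 1460 CPM in fibroblast-1, 6368 CPM in alveolar macrophages and 10953 CPM in airway secretory cells. The macrophage class held markers of both macrophages and neutrophils: its 6 macrophage markers summed to 1126 CPM and its 5 neutrophil markers to 3279 CPM. In alveolar macrophages the same lists summed to 182 and 37.2 CPM. Macrophage therefore stands here only as the deposited name of a class with both kinds of RNA. In ciliated cells 5 ciliated markers summed to 6523 CPM and 4 airway secretory markers to 10810 CPM. The airway secretory markers also summed to 943 CPM in fibroblast-1 and 1891 CPM in alveolar macrophages. Levels are in CPM, the usual counts-per-total scale in which the UMIs of any group of barcodes are scaled to the same sum. Because only the 3′ end is counted, the level of a gene is compared between groups of barcodes and never with the level of another gene.

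Fibroblasts held nearly all fibrillar collagen RNA of the singlets, and the basement membrane collagens were spread more widely. The 2 fibroblast classes together held 47.7% of all singlet UMIs. They held 96.1% of the fibrillar UMIs (144850 of 150683), 75.2% of the basement membrane UMIs and 93.0% of those of the other collagens. Of the 30 collagens with at least 50 singlet UMIs, 19 had over 90% of their UMIs in the fibroblast classes and 3 had under 50%, namely Col4a3 (24.2%), Col4a4 (24.3%) and Col8a2 (48.3%). All collagens together made up 0.766% of the UMIs of fibroblast-1 and 1.19% of those of fibroblast-2.

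**Figure D1:**
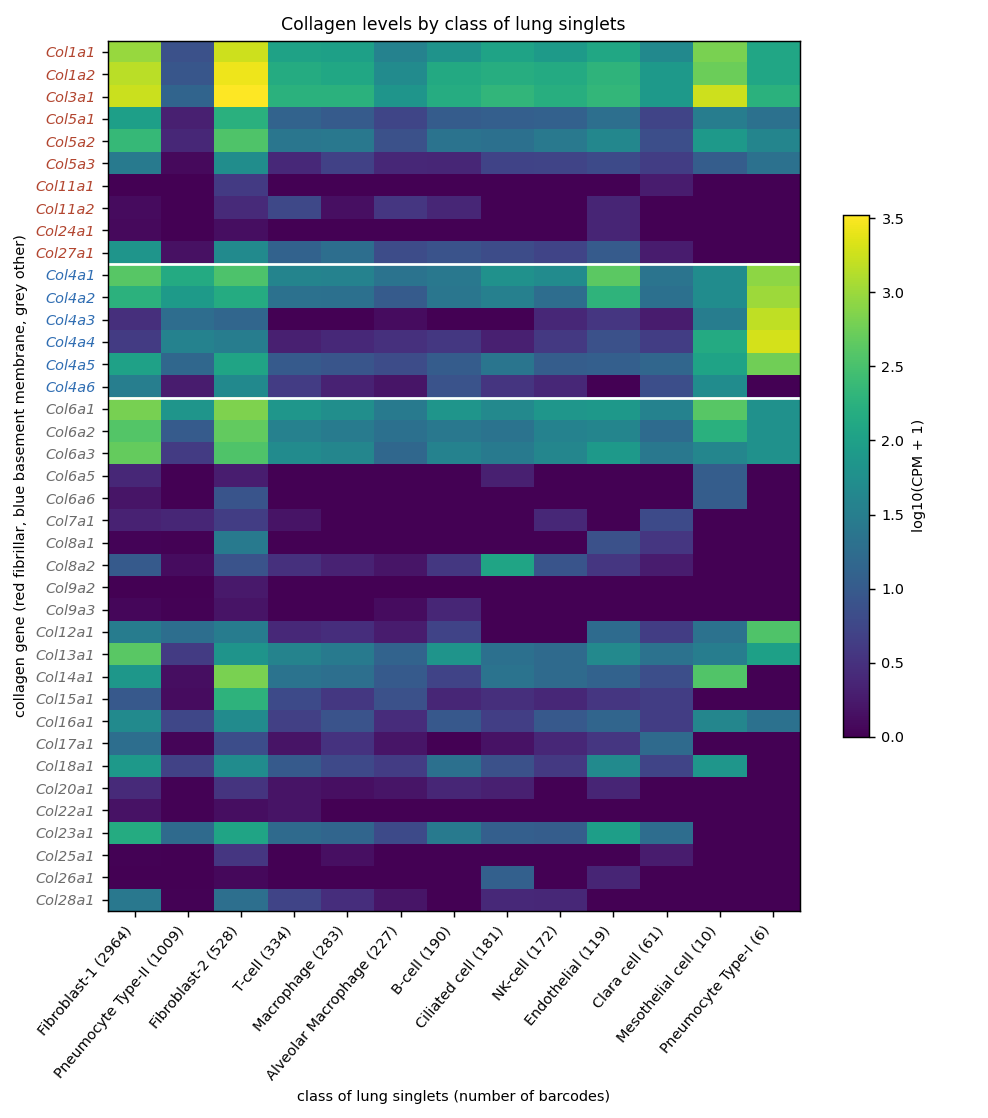
Level of each of the 39 collagen genes (rows) in each class of lung singlets (columns, number of barcodes in brackets), as log10 of CPM plus 1 on the colour scale; white lines separate fibrillar, basement membrane and other collagens. Col3a1 reached 1760 CPM in fibroblast-1 and 3332 CPM in fibroblast-2, and Col4a3 and Col4a4 were bright in the 6 type I pneumocytes.

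At the level of single barcodes the fibrillar genes split the singlets. Summed fibrillar collagens had a median of 3420 CPM in fibroblast-1 barcodes (10th to 90th percentile 1671 to 7305) and of 7101 CPM in fibroblast-2 barcodes (3699.9 to 13305). The median was 0 in each of the 9 remaining classes with at least 20 barcodes. In the small classes it was 1222 CPM over 10 mesothelial cells and 42.1 CPM over 6 type I pneumocytes. After each barcode had been thinned at random to 1000 UMIs, a fibrillar UMI was found in 94.5% of fibroblast-1 (93.6 to 95.3) and 99.6% of fibroblast-2 barcodes. The same share was 2.28% in type II pneumocytes. It was 8.98% in T cells, 12.6% in B cells and 9.88% in NK cells, lymphocytes that are not known to make these collagens, and shares of this size are not read as expression. Median depths before thinning were 6562 UMIs in fibroblast-1, 9781 in fibroblast-2, 16009 in type II pneumocytes, 5039.5 in T cells, 3312.5 in B cells and 3459 in NK cells. Without thinning, a fibrillar UMI was present in 99.9% of fibroblast-1, 26.5% of type II, 21.0% of T cell, 21.6% of B cell and 17.4% of NK cell barcodes.

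The summed level in the non-fibroblast classes rested on few barcodes. Fibrillar collagens summed to 478 CPM in T cells, 391 CPM in B cells, 434 CPM in NK cells, 514 CPM in ciliated cells, 456 CPM in macrophages and 610.2 CPM in endothelial cells. The 10 barcodes with most fibrillar UMIs held 74.6% of the UMIs in T cells, 92.4% in NK cells and 87.5% in ciliated cells. They held 77.2% in endothelial cells and 65.5% in macrophages. The doublet caller Scrublet marked 126 singlets (2.07%) as likely doublets, among them 17 T cells and 20 ciliated cells. Without the marked barcodes the fibrillar level was 77.9 CPM in T cells, 89.3 CPM in B cells, 47.2 CPM in NK cells and 41.7 CPM in ciliated cells. It stayed at 347 CPM in macrophages and 509 CPM in endothelial cells. Fibroblast markers moved with these levels: the 6 of the list summed to 4904 CPM in fibroblast-1, 13922 CPM in fibroblast-2, 805 CPM in endothelial cells, 519 CPM in T cells with Lum at 0, and 44.9 CPM in type II pneumocytes. Their part in the collagen levels of these classes was not tested.

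**Figure D2:**
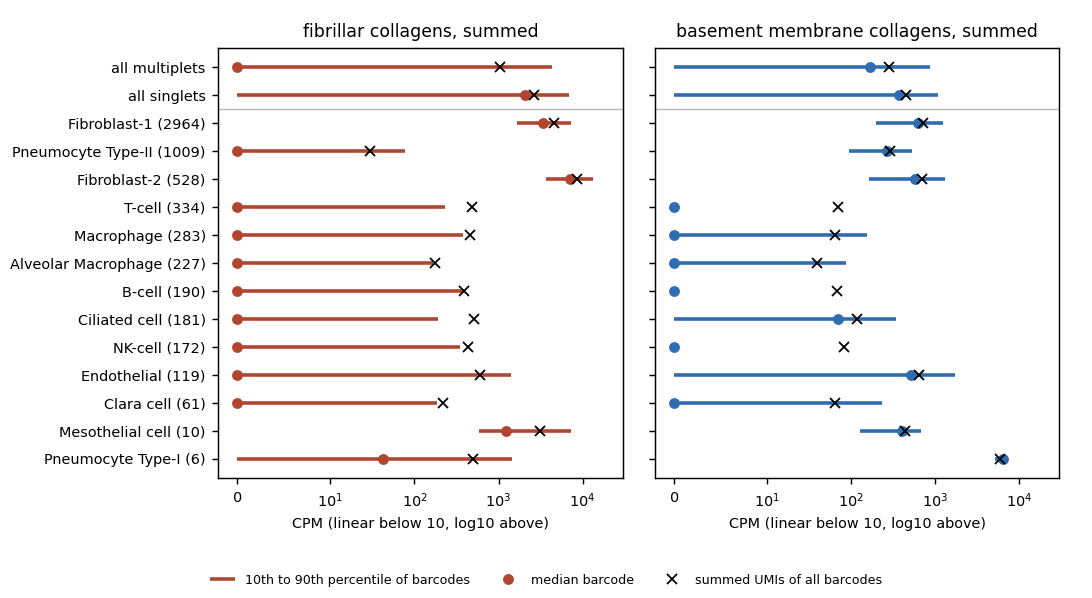
Summed CPM of fibrillar collagens (left) and basement membrane collagens (right) per barcode in all multiplets, all singlets and each singlet class; lines run from the 10th to the 90th percentile, dots are the median barcode and crosses the summed UMIs of all barcodes of the group, on an axis that is linear below 10 CPM and logarithmic above. The median fibrillar level was 0 in all multiplets against 2049 CPM in all singlets, and the median basement membrane level was 271 CPM in type II pneumocytes.

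Basement membrane collagens had a different spread. Summed over the 6 genes they reached 724 CPM in fibroblast-1, 691 CPM in fibroblast-2, 640.4 CPM in endothelial cells and 292 CPM in type II pneumocytes, with medians of 626, 584, 519 and 271 CPM. Fibroblast-1, fibroblast-2 and endothelial cells differed by less than 1.5-fold. T cells were at 70.3 CPM, or 12.5 CPM without marked doublets. The 6 type I pneumocytes reached 5899 CPM, with 5157 to 6713 CPM between their 10th and 90th percentiles. Ciliated cells stood at 117 CPM, with a median of 69.6 CPM, and a UMI in 54.1% of barcodes.

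Among single genes, the class with the highest level, over classes of at least 20 barcodes, was fibroblast-2 for 16 of the 30 collagens, fibroblast-1 for 8, endothelial cells for 2 (Col4a1 and Col4a2), type II pneumocytes for 2 (Col4a3 and Col4a4), ciliated cells for Col8a2 and airway secretory cells for Col7a1. Leaving out the 5 barcodes with most UMIs of the gene in each class placed Col4a1, Col4a2 and Col16a1 highest in fibroblast-1 and Col7a1 highest in fibroblast-2. Giving each barcode equal weight placed Col12a1 and Col28a1 highest in fibroblast-2 and Col17a1 highest in airway secretory cells.

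Between the fibroblast classes, fibroblast-1 had lower levels of the fibril-forming chains and of the fibril-surface and multiplexin collagens Col14a1 and Col15a1, and higher levels of the transmembrane collagens Col13a1 and Col17a1. Of 27 collagens with at least 50 UMIs in either class, 2 were more than 1.5-fold higher and 11 more than 1.5-fold lower in fibroblast-1. Over all 11456 genes counted in the same way, 15.3% were higher and 11.3% lower. The median log2 ratio was -0.13 for the collagens and 0.07 for all genes. The classes had been made from these same cells, so these values describe the classes and are no test of a difference.

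Type I collagen, the main fibre protein, is built from Col1a1 and Col1a2. Col1a1 had 962 CPM (949 to 976) in fibroblast-1 and 1776 CPM (1740.4 to 1811) in fibroblast-2, a ratio of 0.542 (0.529 to 0.555). Col1a2 had 1424 CPM in fibroblast-1 and 2754 CPM in fibroblast-2, a ratio of 0.517. The number of Col1a1 UMIs per Col1a2 UMI was 0.676 (0.664 to 0.688) in fibroblast-1 and 0.645 (0.628 to 0.661) in fibroblast-2, so the chains kept nearly the same proportion in both. Col3a1, the chain of type III collagen found beside type I in distensible tissues, had 1760.1 CPM in fibroblast-1 and 3332 CPM in fibroblast-2, a ratio of 0.528. The type V chains, which copolymerise with type I collagen and set fibre width, were lower by similar amounts, with a ratio of 0.554 for Col5a1 (96.4 and 174 CPM in fibroblast-1 and fibroblast-2), 0.648 for Col5a2 (229.6 and 354 CPM) and 0.503 for Col5a3 (26.4 and 52.5 CPM). Col27a1, a fibrillar collagen with a shorter helix, did not follow, with 68.0 CPM in fibroblast-1 and 47.1 CPM in fibroblast-2, a ratio of 1.44 (1.26 to 1.65). Of the 7 fibrillar genes counted, 6 were therefore lower in fibroblast-1 and 0 higher.

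The ratios of the basement membrane genes differed among the pairs. Col4a5 and Col4a6, unlike the other pairs, had ratios whose intervals did not overlap. Col4a1 and Col4a2, which form the most widespread type IV network, were close in both classes, with 399 CPM in fibroblast-1 and 344 CPM in fibroblast-2 for Col4a1 (ratio 1.16) and 185 and 144 CPM for Col4a2 (ratio 1.28). Col4a5 had 104 CPM in fibroblast-1 and 114 CPM in fibroblast-2, a ratio of 0.914 (0.836 to 1.0005). Col4a6, which joins Col4a5 in a network found around smooth muscle, had 30.8 CPM in fibroblast-1 and 45.7 CPM in fibroblast-2. The ratio of Col4a6, 0.675 (0.583 to 0.784), lay just inside the limit, and it passed the limit with equal barcode weight (0.523) and without marked doublets (0.660). Col4a3 and Col4a4, which with Col4a5 make the network of alveolar and kidney filter membranes, were lower in fibroblast-1. Col4a3 had 1.99 CPM in fibroblast-1 and 13.4 CPM in fibroblast-2 (ratio 0.149, 0.0997 to 0.220), and Col4a4 had 3.11 and 30.1 CPM (ratio 0.103). Within fibroblast-2, 113 of 528 barcodes had a UMI of Col4a3 or Col4a4. Smooth muscle markers summed to 97.04 CPM in the barcodes with a UMI and 692 CPM in the other 415, and adventitial fibroblast markers to 5468 CPM in those with and 4087 CPM in those without.

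The beaded filament collagens Col6a1, Col6a2 and Col6a3, whose chains assemble into microfibrils close to cells, were within the limit: Col6a1 had 639 CPM in fibroblast-1 and 694 CPM in fibroblast-2, Col6a2 had 374 and 471 CPM, and Col6a3 had 495 and 359 CPM. The ratio of Col6a3, 1.38 (1.31 to 1.45), ran opposite to those of Col6a1, 0.920, and Col6a2, 0.794. Col14a1, a collagen of the fibril surface, had 71.3 CPM in fibroblast-1 and 651 CPM in fibroblast-2, a ratio of 0.110 (0.103 to 0.116). Col12a1, of the same family, was level, with 29.4 CPM in fibroblast-1 and 29.3 CPM in fibroblast-2 and a ratio of 1.001 (0.841 to 1.198), and Col16a1 had 47.5 CPM in fibroblast-1 and 48.8 CPM in fibroblast-2. The multiplexins lie near basement membranes, and Col15a1 had 8.76 CPM in fibroblast-1 and 188 CPM in fibroblast-2, a ratio of 0.0467 (0.0398 to 0.0546). The multiplexin Col18a1, whose tail gives the fragment endostatin, had 76.2 CPM in fibroblast-1 and 51.0 CPM in fibroblast-2, a ratio of 1.49 just inside the limit, which it passed with equal barcode weight (1.79) and without marked doublets (1.51). Col8a1, a short-chain network collagen, had 2 UMIs in 2964 fibroblast-1 barcodes and 143 UMIs in 528 fibroblast-2 barcodes, a ratio of 0.00353 (0.000424 to 0.0130). Those 143 UMIs lay in 47 barcodes, and 5 of them held 38.5%. Its partner Col8a2 had 9.04 CPM in fibroblast-1 and 6.97 CPM in fibroblast-2.

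Transmembrane collagens span the cell membrane and carry their helices outside the cell. Col13a1, found at adhesion sites, had 424 CPM (415 to 433) in fibroblast-1 and 65.7 CPM (59.0 to 72.8) in fibroblast-2, a ratio of 6.45 (5.81 to 7.19). It was detected in 2715 of 2964 fibroblast-1 barcodes and 155 of 528 fibroblast-2 barcodes. Col17a1, known as the collagen of epithelial hemidesmosomes, had 17.7 CPM in fibroblast-1 and 5.87 CPM in fibroblast-2, a ratio of 3.02 (2.10 to 4.47). Its 382 fibroblast-1 UMIs lay in 358 barcodes, and the 5 barcodes with most of them held 2.62%. Col17a1 had 2 UMIs in 1009 type II pneumocytes and 18 UMIs in 61 airway secretory cells. Col23a1 had 144 CPM in fibroblast-1 and 113 CPM in fibroblast-2, and it reached 94.7 CPM in endothelial cells. Col28a1 had 25.0 CPM in fibroblast-1 and 18.5 CPM in fibroblast-2, with 539 UMIs in only 206 fibroblast-1 barcodes.

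**Figure D3:**
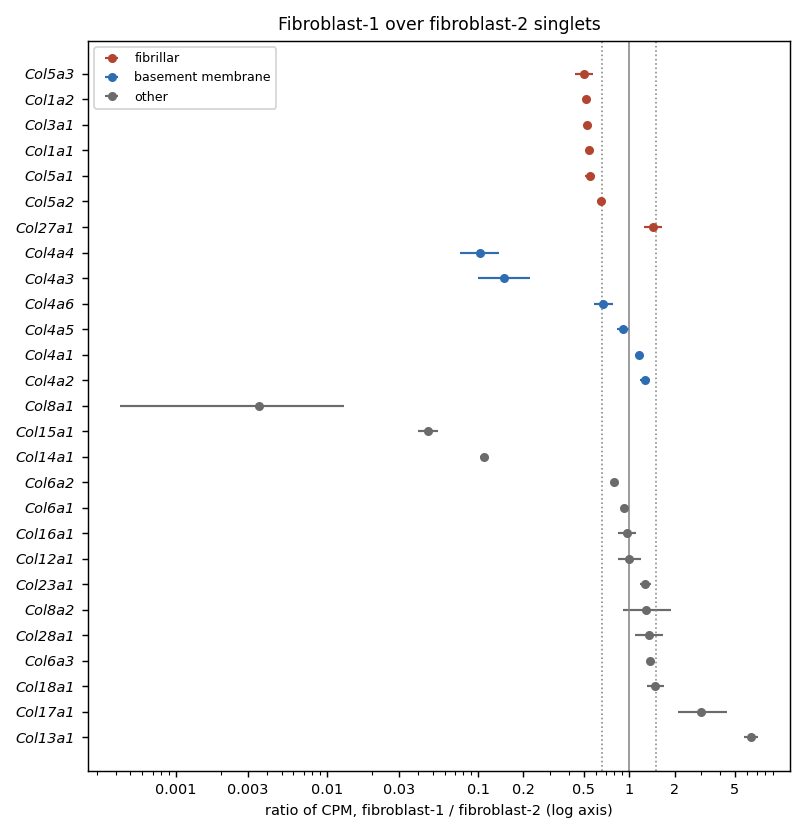
Ratio of CPM in fibroblast-1 to fibroblast-2 singlets for the 27 collagens with at least 50 UMIs in either class, on a log axis, with 95% counting intervals; the solid line marks equality and the dotted lines 1.5-fold. Col8a1, Col15a1, Col14a1, Col4a4 and Col4a3 lie far to the left, and Col13a1 (6.45) and Col17a1 (3.02) to the right.

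Col13a1 was detected more often in fibroblast-1 and Col14a1 more often in fibroblast-2. In barcodes thinned to 1000 UMIs, Col13a1 was detected in 35.4% of fibroblast-1 and 4.17% of fibroblast-2, and Col14a1 in 4.72% of fibroblast-1 and 42.0% of fibroblast-2. Both were detected in 31 fibroblast-1 barcodes (1.05%) and 8 fibroblast-2 barcodes (1.52%). Of the 22 fibroblast-2 barcodes with Col13a1, those 8 are a share near the 42.0% with Col14a1 among all barcodes of that class. Of the 140 fibroblast-1 barcodes with Col14a1, those 31 are a share below the 35.4% with Col13a1 in that class. Neither gene was detected in 60.9% of fibroblast-1 and 55.3% of fibroblast-2 barcodes at this depth. At 2000 UMIs the share with both was 3.91% in fibroblast-1 and 6.06% in fibroblast-2. At that depth 116 of 248 fibroblast-1 barcodes with Col14a1 had Col13a1, below the 55.5% of that class. Likewise 32 of 66 fibroblast-2 barcodes with Col13a1 had Col14a1, below the 58.7% of that class. Whether the 2 genes are detected independently of each other was not tested. For comparison, the thinned share with Col13a1 was 0.198% in type II pneumocytes and 3.68% in B cells. Of the marker lists for these cells, alveolar fibroblast markers summed to 10119 CPM in fibroblast-1 and 2782 CPM in fibroblast-2, and adventitial fibroblast markers to 644 CPM in fibroblast-1 and 4395 CPM in fibroblast-2, with 6 of 6 genes of each list detected in both classes.

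Outside the fibroblasts, type II pneumocytes carried basement membrane collagens with almost no fibrillar collagen. Col4a1 had 142 CPM (136 to 148), Col4a2 had 81.7 CPM, Col4a5 had 14.3 CPM and Col4a6 had 0.864 CPM in this class. Col4a1 was detected in 853 of the 1009 barcodes. Col4a3 had 17.2 CPM (15.3 to 19.4) in 221 barcodes and Col4a4 had 35.6 CPM (32.8 to 38.6) in 407 barcodes, and 102 barcodes had both. Both genes were near absent from lymphocytes: Col4a3 had 0 UMIs in T cells and in B cells, which allows up to 1.58 and 4.13 CPM, and Col4a4 had 2 UMIs in each. Summed type I markers were 1340 CPM in type II barcodes with a UMI of either gene and 1192 CPM in those without, and their part in these levels was not tested. Fibril-surface Col12a1 stood at 17.6 CPM in type II pneumocytes, with 175 of 1009 barcodes positive. It was not particular to this class, with 15.8 CPM in endothelial cells, 29.4 CPM in fibroblast-1 and 29.3 CPM in fibroblast-2. The 6 type I pneumocytes had 356 CPM, on 18 UMIs. Ciliated and NK cells had 0 UMIs, which allows up to 1.52 and 4.29 CPM.

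The proportion of chains also differed in type II pneumocytes. Because UMI counts of different genes are not on a common scale, only the change of such a ratio between classes is read. For each Col6a2 UMI there were 7.36 Col6a1 UMIs (6.19 to 8.80) in type II pneumocytes, against 1.71 in fibroblast-1 and 1.47 in fibroblast-2. Col6a1 had 67.2 CPM in type II barcodes and Col6a3 had 3.15 CPM. Col6a1 was detected in 570 of the 1009 type II barcodes and Col6a2 in 127, and the 5 barcodes with most Col6a1 UMIs held 3.49% of them. For each Col4a6 UMI there were 16.5 Col4a5 UMIs (9.64 to 30.7) in type II pneumocytes, against 3.38 in fibroblast-1 and 2.49 in fibroblast-2. Col4a1 UMIs per Col4a2 UMI were closer together, at 1.74 in type II pneumocytes, 2.16 in fibroblast-1, 2.38 in fibroblast-2 and 2.17 in endothelial cells.

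Endothelial cells had 425 CPM of Col4a1 (380 to 474) and 196 CPM of Col4a2 (166 to 230.1), levels close to those of fibroblast-1. Col4a1 was detected in 98 and Col4a2 in 67 of 119 barcodes. Col18a1 had 47.3 CPM in this class. In ciliated cells Col8a2 reached 114 CPM (99.5 to 130), against 9.04 CPM in fibroblast-1, the next class. It was detected in 127 of 181 ciliated barcodes and in 2 of 190 B cells and 3 of 334 T cells. Of the 24 singlet UMIs of Col26a1, 22 lay in ciliated cells, in 21 barcodes, which gave 11.1 CPM. The 6 type I pneumocytes had 1524 CPM of Col4a3, 1960 CPM of Col4a4, 1009.6 CPM of Col4a2, 831 CPM of Col4a1 and 574 CPM of Col4a5, each detected in 6 of 6 barcodes, and 0 UMIs of Col4a6. Mesothelial cells had 1815 CPM of Col3a1 in 10 of 10 barcodes, 363 CPM of Col14a1 and 141 CPM of Col4a4.

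The second comparison was between multiplets and singlets, and it asks which collagen RNA was more or less abundant where cells were still attached to each other. Collagens were lower in multiplets. Of 31 collagens with at least 50 UMIs in either library, 26 were more than 1.5-fold lower and 0 more than 1.5-fold higher. Among all 15098 genes counted in the same way, 13.8% were lower and 15.9% higher. The median log2 ratio was -1.19 over the collagens and -0.05 over all genes. Fibrillar collagens summed to 1055 CPM in multiplets and 2660.4 CPM in singlets, a ratio of 0.397 (0.393 to 0.400), with 7 of 8 lower. Basement membrane collagens summed to 286 CPM in multiplets and 455 CPM in singlets, a ratio of 0.628 (0.616 to 0.640), with 4 of 6 lower. Other collagens summed to 503 CPM in multiplets and 1254 CPM in singlets, a ratio of 0.401, with 15 of 17 lower.

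Fibroblast RNA made up less of the multiplet library, and its values stand beside these ratios. In a fit that shares out the UMIs of every barcode among the singlet class profiles, using 520 class-specific genes with no collagen among them, both fibroblast classes together accounted for 19.1% of multiplet UMIs and 48.8% of the UMIs of singlets fitted with held-out profiles. A fibroblast class reached a weight of at least 0.15 in 1270 multiplets (26.9%) and 3638 singlets (59.8%). The 1270 multiplets with a fibroblast class had 4527 CPM of fibrillar collagens, and the 3459 without had 75.9 CPM. For basement membrane collagens these levels were 627 and 189.6 CPM. The 6 fibroblast markers summed to 1051 CPM in all multiplets. In bulk sums like these, fewer fibroblasts and less collagen RNA per fibroblast cannot be told apart.

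**Figure D4:**
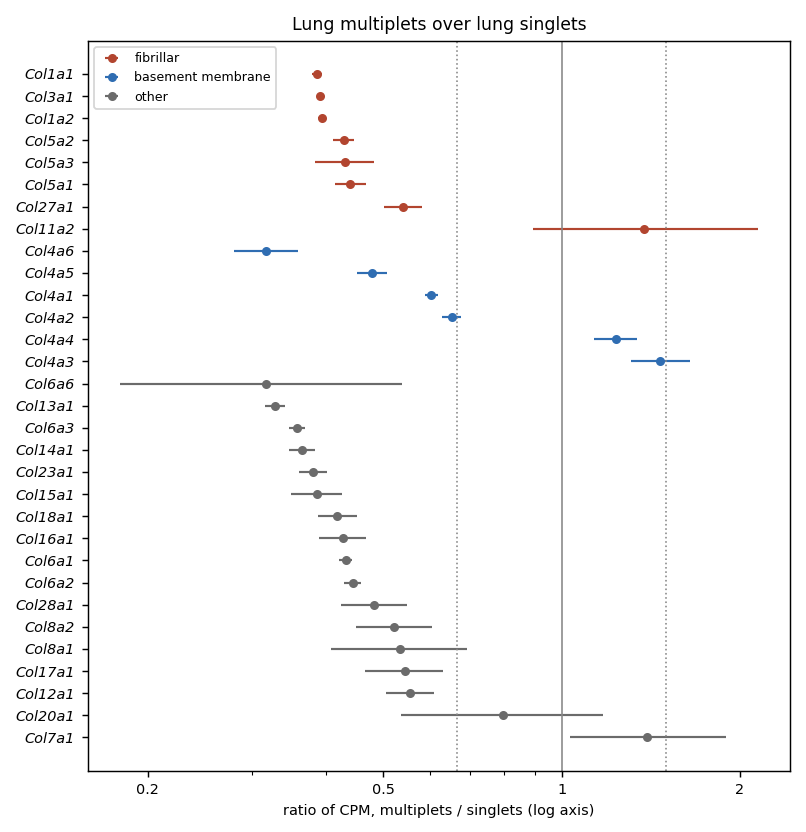
Ratio of CPM in lung multiplets to lung singlets for the 31 collagens with at least 50 UMIs in either library, on a log axis, with 95% counting intervals; the solid line marks equality and the dotted lines 1.5-fold. All fibrillar genes but Col11a2 lie between 0.387 and 0.539, and Col4a3, Col4a4, Col7a1 and Col11a2 lie above equality but inside the limit.

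The main fibrillar genes had almost the same ratio. Col1a1 had 216 CPM in multiplets and 559 CPM in singlets (0.387 times, 0.379 to 0.395), Col1a2 had 330.4 and 838 CPM (0.394 times) and Col3a1 had 404 and 1032 CPM (0.392 times). Col5a1 had 24.6 CPM in multiplets and 55.9 CPM in singlets (0.439 times), Col5a2 had 54.2 and 126 CPM (0.429 times) and Col5a3 had 6.83 and 15.9 CPM (0.431 times). Col27a1 was higher in relation to these, with 17.6 CPM in multiplets and 32.6 CPM in singlets (0.539 times, 0.501 to 0.581). Col11a2, a chain of the cartilage fibre type XI collagen, had 58 UMIs in multiplets and 36 in singlets, a ratio of 1.38 (0.893 to 2.15). In barcodes thinned to 1000 UMIs a fibrillar UMI was found in 27.7% of multiplets (26.4 to 29.0) and 57.7% of singlets (56.4 to 58.9).

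The basement membrane genes ranged from 0.317 to 1.47. Col4a6 had 5.39 CPM in multiplets and 17.0 CPM in singlets (0.317 times, 0.280 to 0.358), and Col4a5 had 27.7 and 57.8 CPM (0.478 times). Col4a1 had 144 CPM in multiplets and 239.7 CPM in singlets (0.602 times, 0.587 to 0.618), and Col4a2 had 75.3 and 116 CPM (0.652 times). Col4a3 had 12.4 CPM in multiplets and 8.47 CPM in singlets (1.47 times, 1.31 to 1.65) and Col4a4 had 20.7 and 16.8 CPM (1.23 times, 1.13 to 1.34), both inside the limit. With each barcode given equal weight the ratio was 2.45 for Col4a3 and 1.82 for Col4a4. The share of thinned barcodes with a basement membrane UMI was 22.5% in multiplets and 34.3% in singlets.

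Of the other collagens, Col13a1 had 57.3 CPM in multiplets and 174.7 CPM in singlets (0.328 times, 0.316 to 0.341), Col17a1 had 4.29 and 7.89 CPM (0.543 times) and Col23a1 had 28.2 and 74.0 CPM (0.380 times). Col6a1 had 148 CPM in multiplets and 342 CPM in singlets (0.432 times), Col6a2 had 87.3 and 197 CPM (0.444 times) and Col6a3 had 82.8 and 232 CPM (0.357 times). Col6a6, a further chain of that family, had 20 UMIs in multiplets and 54 in singlets (0.317 times, 0.179 to 0.537), with 85.0% of the multiplet UMIs in 10 barcodes. The fibril-surface genes gave 34.2 CPM in multiplets and 93.9 CPM in singlets for Col14a1 (0.364 times), 11.1 and 19.9 CPM for Col12a1 (0.555 times), 10.8 and 25.3 CPM for Col16a1 (0.427 times) and 53 and 57 UMIs for Col20a1 (0.795 times, 0.536 to 1.18). The multiplexins gave 8.65 CPM in multiplets and 22.4 CPM in singlets for Col15a1 (0.386 times) and 15.5 and 37.1 CPM for Col18a1 (0.418 times). Col8a1 had 96 UMIs in multiplets and 154 in singlets (0.533 times, 0.408 to 0.692), and the 10 barcodes with most held 65.6% of the multiplet UMIs. Col8a2 had 4.44 CPM in multiplets and 8.51 CPM in singlets (0.521 times). Col28a1 had 5.63 CPM in multiplets and 11.7 CPM in singlets (0.483 times). Col7a1, the anchoring fibril collagen of skin, had 119 UMIs in multiplets and 73 in singlets, a ratio of 1.39 (1.03 to 1.89). The 7 genes below the minimum in both tables (Col6a5, Col9a3, Col11a1, Col22a1, Col24a1, Col25a1 and Col26a1) had 4 to 29 UMIs in multiplets and 8 to 40 in singlets. Col9a2 had 4 UMIs and was listed for singlets only.

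Multiplets in which the fit gave a single class were set beside the singlets of that class. At a weight of at least 0.15 a single class was called in 3586 of 4729 multiplets (75.8%) and 5404 held-out singlets (88.8%). Exactly 2 classes were called in 1003 multiplets (21.2%) and 654 held-out singlets (10.7%). Most of the multiplet library is thus called with 1 class. Such multiplets may hold several cells of the class, and the calls used no collagen. They may also hold other classes at weights under 0.15 each. The singlets were taken by the authors' class and not by the fit, so the sets were not chosen alike. For fibroblast-1, 2964 singlets were used, while the fit called that class alone in 2748 held-out singlets. In 806 multiplets with fibroblast-1 alone (median 9370.5 UMIs), fibrillar collagens stood at 3892 CPM, against 4568 CPM in fibroblast-1 singlets, a ratio of 0.852 (0.841 to 0.863), and basement membrane collagens at 627 CPM, against 724 CPM (0.866 times). Most genes were near these ratios: Col13a1 had 361 CPM in those multiplets and 424 CPM in the singlets, and Col17a1 had 17.1 and 17.7 CPM. Of the genes with at least 50 UMIs in either, the lowest were Col4a6, with 13.5 CPM in the multiplets and 30.8 CPM in the singlets (0.439 times, 0.354 to 0.539), Col28a1, with 10.2 and 25.0 CPM (0.410 times, 0.320 to 0.519), and Col15a1, with 4.93 and 8.76 CPM (0.563 times, 0.388 to 0.798). In 61 multiplets with fibroblast-2 alone, fibrillar collagens stood at 7803 CPM, against 8494 CPM in fibroblast-2 singlets, Col4a6 at 17.6 CPM, against 45.7 CPM (0.385 times, 0.190 to 0.701), and Col15a1 at 104 CPM, against 188 CPM (0.554 times, 0.424 to 0.712). The sets of fibroblast-2 differed also in Col13a1 (0.487 times), Col23a1 (0.468 times) and Col8a1, with 3 UMIs in the multiplets and 143 in the singlets.

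**Figure D5:**
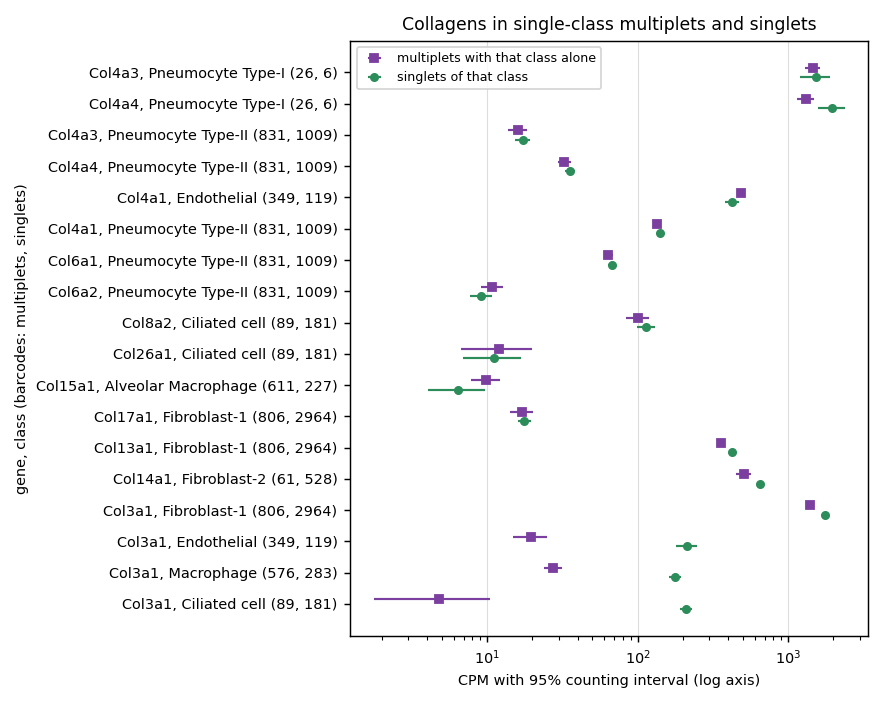
CPM with 95% counting interval, on a log axis, of chosen collagens in multiplets that were fitted with a single class (squares, listed above) and in singlets of that class (circles, below); the numbers of multiplet and singlet barcodes are in brackets. Col4a3 and Col6a1 in type II pneumocytes and Col8a2 in ciliated cells lie close together in both libraries, while Col3a1 in endothelial cells, macrophages and ciliated cells is lower in the multiplets. For these classes, multiplets with a fitted fibroblast weight of at least 0.15 had been left out, and no such choice was made among the singlets.

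Type II pneumocytes and endothelial cells had like levels of basement membrane collagens in both libraries and less fibrillar collagen in multiplets. In 831 multiplets with type II pneumocytes alone, basement membrane collagens stood at 273 CPM, against 292 CPM in the singlets, and fibrillar collagens at 9.34 CPM, against 29.9 CPM. Col4a3 had 16.0 CPM in these multiplets and 17.2 CPM in the singlets, Col4a4 had 32.7 and 35.6 CPM, and Col6a1 had 64.0 and 67.2 CPM. The chain proportion again differed from that of fibroblasts, with 5.92 Col6a1 UMIs per Col6a2 UMI (4.91 to 7.17) in the multiplets and 7.36 in the singlets. Multiplets with fibroblast-1 alone had 1.64 (1.56 to 1.72), and those with fibroblast-2 alone had 1.18 (1.02 to 1.37). In 349 multiplets with endothelial cells alone, Col4a1 had 490.1 CPM, against 425 CPM in the singlets, and fibrillar collagens 83.3 CPM, against 610.2 CPM (0.136 times, 0.117 to 0.159). Markers of vessel cells differed between these sets. Endothelial markers summed to 7981 CPM in the multiplets and 5596 CPM in the singlets, lymphatic markers to 4493 and 5901 CPM, and markers of aerocytes, the capillary cells that line the gas exchange surface, to 3655 and 1234 CPM. Their part in the collagen values was not tested. Col12a1 in endothelial cells had 33.2 CPM in these multiplets and 15.8 CPM in the singlets, on 12 singlet UMIs, and Col15a1 had 51 UMIs in the multiplets and 2 in the singlets (6.31 times, 1.66 to 53.5). In 71 multiplets with T cells alone, fibrillar collagens had 5 UMIs, or 10.1 CPM, against 478 CPM in T cell singlets. In choosing multiplets with a single class, those with a fitted fibroblast weight of at least 0.15 were left out, and no such choice was made among the singlets.

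Small and rare classes could be followed in the same way. In 26 multiplets with type I pneumocytes alone Col4a3 had 1460 CPM, against 1524 CPM in the 6 singlets (0.958 times, 0.742 to 1.248), and Col4a4 had 1307 CPM, against 1960 CPM (0.667 times, 0.527 to 0.850). These multiplets had 55.96 CPM of fibrillar collagens and 35.6 CPM of Col4a6, which had 0 UMIs in the 6 singlets. In 66 multiplets with mesothelial cells alone, Col4a4 had 336 CPM, against 141 CPM in the 10 singlets, and there were 0.198 Col4a3 UMIs per Col4a4 UMI (0.148 to 0.261), against 1.12 (0.940 to 1.33) in the multiplets with type I pneumocytes alone. In 89 multiplets with ciliated cells alone, Col8a2 had 100.4 CPM, against 114 CPM in the singlets, and Col26a1 had 12.0 CPM, against 11.1 CPM. In 611 multiplets with alveolar macrophages alone, Col15a1 had 9.86 CPM in 69 barcodes, against 6.45 CPM in 227 singlets (1.53 times, 0.944 to 2.57). Fibrillar collagens had 14.2 CPM in these multiplets, against 174 CPM in the singlets, or 39.8 CPM without marked doublets. The 10 singlets with most fibrillar UMIs held 73.1% of those of the class. Here too the multiplets, but not the singlets, had been chosen for a low fitted fibroblast weight.

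The fitted weights also predict how much of each collagen the multiplets should hold if every class kept its singlet level. Observed over predicted was 0.818 (0.812 to 0.824) for fibrillar collagens, 0.850 (0.838 to 0.862) for basement membrane collagens and 0.789 (0.781 to 0.798) for the others. In singlets fitted with held-out profiles these ratios were 0.981, 0.959 and 0.980. Those profiles came from other barcodes of the same classes and library, so they cannot show a difference between libraries. The prediction also carries the fibrillar RNA of non-fibroblast singlets, such as 456 CPM in the macrophage class, against 80.1 CPM in multiplets with that class alone. The part of this RNA in the ratios was not tested. Of 26 collagens with at least 200 UMIs observed or predicted, 0 were more than 1.5-fold above and 3 more than 1.5-fold below the prediction, against 2.34% above and 1.34% below among all 12572 genes. In the held-out singlets 0% of 12003 genes were above and 0.075% below. The 3 were Col4a3, with 824 UMIs observed and 1367 predicted (0.603 times), Col4a4, with 1369 observed and 2182 predicted (0.627 times), and Col4a6, with 357 observed and 569.9 predicted (0.626 times, 0.563 to 0.695). The predictions for Col4a3 and Col4a4 rest on 6 type I pneumocyte singlets: without the classes under 20 singlets their ratios were 2.61 and 1.94, and in the held-out singlets they were 0.708 and 0.782. Col4a6 stood at 0.976 in the held-out singlets. Col13a1, at 0.670 (0.649 to 0.692), and Col23a1, at 0.680 (0.649 to 0.712), lay just inside the limit. Col27a1, at 0.970, lay nearest to the prediction, and Col28a1, at 1.08, was the highest.

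Genes that fold, trim, link, bind and break down collagen were described from a list of 73 symbols, of which Ctgf and Ccn2 name the same gene. Of these 69 were counted, and 41 were more than 1.5-fold lower and 10 higher in multiplets, with a median log2 ratio of -0.80. Over all genes 13.8% were lower and 15.9% higher, so the share of these genes that were higher was near that of all genes. The counts by role are small and stand against the same shares. Cross-linking enzymes were lower in 5 of 5 cases. Among them the lysyl oxidase Lox had 31.4 CPM in multiplets and 79.5 CPM in singlets (0.395 times), Loxl1 had 76.2 and 201 CPM (0.380 times), Loxl3 was at 0.464 times and Loxl2 at 0.517 times. Of 18 hydroxylases and chaperones 9 were lower and 1 higher. Serpinh1, the collagen chaperone of the endoplasmic reticulum, had 258 CPM in multiplets and 543 CPM in singlets (0.475 times), and the lysyl hydroxylase Plod2 had 22.9 and 48.6 CPM (0.471 times). The prolyl hydroxylase subunit P4ha1 was inside the limit at 0.686 times. P3h2, a prolyl hydroxylase named here after its value was seen, was the higher gene, with 4.04 CPM in multiplets and 1.92 CPM in singlets (2.10 times, 1.68 to 2.65), while P3h3 (0.395 times), Colgalt2 (0.362), Fkbp10 (0.427) and Fkbp14 (0.448) were lower.

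Of 10 genes of export and processing 7 were lower and 1 higher. Pcolce, which speeds the removal of the propeptide, had 102 CPM in multiplets and 228 CPM in singlets (0.446 times), its relative Pcolce2 was at 0.421 times, and the propeptidase genes Adamts3 and Adamts14 at 0.234 and 0.358 times. Tll1, a further propeptidase, was at 2.68 times (1.76 to 4.19), with 1.42 CPM in multiplets. Of 11 fibril partners 9 were lower, with Lum, a small proteoglycan on fibrils, at 0.104 times (0.0931 to 0.115), Aspn at 0.223 times and Dcn at 0.265 times. Postn, a matricellular protein, was at 3.68 times, with 9.43 CPM in multiplets and 2.56 CPM in singlets. Among genes of degradation and uptake 5 of 9 were lower and 3 higher. The gelatinase Mmp9 had 25.2 CPM in multiplets and 2.45 CPM in singlets (10.3 times, 8.62 to 12.3), the collagenase Mmp8 had 12.6 and 3.14 CPM, and Mmp2 had 59.6 and 143 CPM (0.416 times), with the uptake receptor Mrc2 at 0.337 times.

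Of 8 receptors 3 were higher and 3 lower, beside 15.9% and 13.8% over all genes. The collagen receptor Ddr2 had 43.9 CPM in multiplets and 94.8 CPM in singlets (0.463 times), and its relative Ddr1 was inside the limit at 0.752 times. Itga1, the integrin chain that binds basement membrane collagen, had 81.4 CPM in multiplets and 25.7 CPM in singlets (3.17 times, 2.99 to 3.36), and the leukocyte receptor Lair1 had 32.6 and 9.55 CPM (3.42 times). The integrin chains Itga11 and Itga10 were at 0.295 and 0.422 times. Of 8 regulators 3 were lower and 1 higher, with Tgfb1, a growth factor that raises collagen synthesis, at 120 CPM in multiplets and 49.2 CPM in singlets (2.44 times), Ccn2 at 0.393 times, Creb3l1 at 0.522 times and Tgfb3 at 0.592 times. The classes named macrophage and alveolar macrophage took more of the multiplet library beside these higher genes: in the fit, the macrophage class accounted for 19.1% of multiplet UMIs and 4.23% of held-out singlet UMIs, and alveolar macrophages for 17.9% and 5.64%. The neutrophil markers, a list that includes Mmp9, had 5 of 5 genes detected and summed to 1717 CPM in all multiplets and 12448 CPM in the 576 multiplets fitted with the macrophage class alone, against 3279 CPM in singlets of that class. The part of these values in the higher levels was not tested.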

How the data were processed

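For each lung library the authors deposited unnormalized UMI counts by gene symbol and barcode, and a table with the quality flag and, for singlets, the class of each barcode. Per the submitters' processing notes, Cell Ranger 4.0.0 and mm10 were used. The sources used here do not say how classes or flag were set. No further filter was set on barcodes. UMIs were summed per library or class and scaled to the total (CPM). Totals were 66277622 UMIs for multiplets and 56639425 for singlets. Sums carry exact Poisson, ratios exact conditional binomial and shares exact Clopper-Pearson 95% intervals, which cover counting error only. There was no replicate and no test. Genes needed 50 UMIs in either group and were called by size alone, beyond 1.5-fold. Multiplets were fitted by expectation maximization (300 iterations) as Poisson mixtures of class profiles. The fit used 40 genes per class, with 10 CPM added when these were chosen. It was tried on data simulated from the same profiles, as pairs of the larger classes at a fixed depth. That trial did not cover the smaller classes, barcodes of a single class or the range of depths of the multiplets. Classes with a weight of 0.15 or more were called. Scrublet in scanpy 1.11.5 marked doublets, which were kept. TMM factors came from edgeR 4.0.16, other steps from numpy 2.4.6, scipy 1.17.1 and pandas 2.3.3.

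Of the 39 genes, 31 reached the minimum and have their values in full. Machinery genes named are at most 4 per role past the limit, by size of the ratio, and 8 by name (P4ha1, Plod2, Serpinh1, Lox, Ddr1, Ddr2, Mmp2 and Pcolce). P3h2 is outside it. Mmp13 and Gp6 were not analysed here, Ctgf was counted under its symbol Ccn2, and P4ha3 was below the minimum. Members and gene lists were chosen with earlier results of these data known. The comparison of single-class multiplets with singlets was added after levels had been seen, as were the genes named in it. Start sites and coding sequences came from GENCODE and promoter windows from RefSeq, both on GRCm38.p6. Antisense and overlapping genes were counted as deposited. Col10a1 and Col2a1 had 3 UMIs each in multiplets and are not in the singlet table.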

Additional observations from a re-analysis of the deposited data

How the results depend on the processing

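The count of lower collagens, 26, was 19 to 31 under every alternative run. The count of higher collagens, 0, was 1 with TMM scaling (Col4a3, 1.52), 2 with equal barcode weight (Col4a3, 2.45, and Col4a4, 1.82), 1 without the 10 barcodes with most UMIs of the gene (Col11a2, 2.12) and 3 at the narrowest size limit tried. The multiplet to singlet ratios of fibrillar, basement membrane and other collagens were 0.411, 0.650 and 0.416 with TMM scaling, and 0.369, 0.616 and 0.381 without those 10 barcodes. With equal weight fibrillar and basement membrane ratios were 0.420 and 0.720, and with singlets at least as deep as the shallowest multiplet fibrillar and other ratios were 0.388 and 0.408. Shares of barcodes with a fibrillar UMI were 30.4% of multiplets and 61.3% of singlets at 2000 UMIs, and 43.1% and 69.3% without thinning. Those with a basement membrane UMI were 35.2% and 50.9%, and 62.7% and 77.1%. With no minimum, 20 collagens were lower in fibroblast-1, where 11 were with it. With equal barcode weight, and also without marked doublets, Col18a1 (1.79 and 1.51) joined the 2 higher and Col4a6 (0.523 and 0.660) the 11 lower collagens there. Observed over predicted for fibrillar, basement membrane and other collagens was 0.869, 0.877 and 0.838 without marked doublets, 0.772, 1.004 and 0.761 without classes under 20 singlets, and 0.890 for basement membrane with weights under 0.15 removed. Without the small classes 2 collagens passed the limit upward, Col4a3 at 2.61 and Col4a4 at 1.94, a reversed direction. For these changes the cause was not tested. Col12a1 (0.687), Col4a1 (0.675) and Col4a2 (0.742) came inside the limit with equal weight, Col20a1 (0.585) passed it downward, and Col4a2 (0.675) came inside it with TMM scaling. No paired analysis was possible because each group has 1 library. Depth limits genes with under 50 UMIs and the classes of 10 and 6 singlets.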
